A study of Rattus norvegicus with 4 samples.

Results

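The glucose carrier transcripts of the rat choroid plexus were the SLC2A genes in the study's lists of plasma membrane transporters and pumps, together with SLC5A2. There were 10 such genes, 9 SLC2A genes and SLC5A2, of 32883 gene IDs quantified and of 263 genes on the 3 transporter lists. Each list holds genes at or above 0.5 TPM, a length-scaled abundance that sums to 1000000 in each library, in the male choroid plexus, the FACS epithelial cells or the proximal tubule, so presence in at least 1 of these libraries was fixed by the choice of genes. The female library played no part in that choice. All rats were 9-week-old Sprague Dawley. Choroid plexus of 5 male rats made up the first library, and that of 5 female rats made up another. A further library held epithelial cells that an antibody to NKCC1 labelled in digested choroid plexus of 10 males, collected by fluorescence-activated sorting (FACS). The last was of kidney proximal tubules, freed with collagenase and pronase and picked by hand, from 5 males. The study's methods take the kidneys from the male rats named for the choroid plexus, so the tubule and male choroid plexus pools may share animals. Each library was a pool of animals and each condition had 1 library, so there were no replicates and no test between conditions. In the pooled tissue, fewer cells of a type and less RNA per cell cannot be told apart.

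Glucose crosses cell membranes through 2 unrelated carrier families. The GLUT proteins, encoded by the SLC2 genes, let sugars move down their gradient, whereas SGLT proteins of the SLC5 family couple glucose to the inward gradient of Na+. The choroid plexus epithelium is known for GLUT1 on its blood-facing membrane, and the kidney proximal tubule is known for reclaiming filtered glucose through SGLT proteins on its apical side and GLUT2 on its basolateral side.

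Expected counts summed to between 23873318 and 28324976 per library. In the proximal tubule library, 70.7% of them lay on the 13 mitochondrially encoded genes, against 4.32 to 5.34% in the choroid plexus libraries, which left 7352952 counts for the rest. TTR, the thyroxine carrier that marks choroid plexus epithelium, had 238565 TPM in the male, 285892 TPM in the female and 389655 TPM in the FACS library, but 0.07 TPM in the tubule. All 10 markers listed for choroid plexus epithelium were measured in the choroid plexus libraries, and 6 of them were listed at 0 in the tubule. So were 58.6% of all genes that reached 0.5 TPM in male choroid plexus and 35.9% of those that reached 50 TPM. Between the FACS cells and the male tissue TTR was not typical of the 10 markers, since 2 were higher and 8 were lower. The tubule library held the proximal tubule carriers SLC7A13 at 7371 TPM, SLC3A1 at 3125 TPM and SLC13A1 at 385 TPM, with mitochondrially encoded genes left out. These were the highest of 12 named markers, of which 11 were higher in the tubule than in the male choroid plexus and 1 lower. Some of the 12, such as SLC34A1 with no count in the choroid plexus, had a name through the tubule list alone. On the same scale SLC22A8 went the other way, at 14.9 TPM in the tubule against 132 TPM. SLC13A3 hardly differed, at 1.69 TPM against 1.65 TPM. The tubule library also held markers of other nephron segments, KCNJ1 at 89.3 TPM and SLC12A1 at 17.2 TPM on the same scale.

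The choroid plexus carried 2 abundant glucose carrier transcripts, SLC2A12 and SLC2A1, and both were listed at 0 in the proximal tubule. The promoter sequences of both are shown beside those of SLC5A2 and SLC2A2, 2 of the 3 members that were higher in the tubule, so that the start regions of members with opposite patterns can be read side by side. Each is the 250 bases before the annotated start of the gene in RefSeq for the build GRCr8, read 5′ to 3′ on the strand of the gene, with motif matches in capitals. They lie at chr1:24677216-24677465 (minus strand) for SLC2A12, chr5:138002272-138002521 (plus strand) for SLC2A1, chr1:192277371-192277620 (plus strand) for SLC5A2 and chr2:113540120-113540369 (plus strand) for SLC2A2.
SLC2A12: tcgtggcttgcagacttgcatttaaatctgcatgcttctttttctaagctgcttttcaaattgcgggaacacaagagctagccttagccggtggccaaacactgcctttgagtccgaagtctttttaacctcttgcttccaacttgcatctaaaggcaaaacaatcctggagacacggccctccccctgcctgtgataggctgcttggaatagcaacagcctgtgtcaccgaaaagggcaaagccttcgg
SLC2A1: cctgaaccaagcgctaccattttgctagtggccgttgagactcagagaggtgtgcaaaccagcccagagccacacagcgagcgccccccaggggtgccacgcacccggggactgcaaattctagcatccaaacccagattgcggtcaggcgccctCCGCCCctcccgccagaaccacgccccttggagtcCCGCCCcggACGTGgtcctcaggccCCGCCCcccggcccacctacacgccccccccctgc
SLC5A2: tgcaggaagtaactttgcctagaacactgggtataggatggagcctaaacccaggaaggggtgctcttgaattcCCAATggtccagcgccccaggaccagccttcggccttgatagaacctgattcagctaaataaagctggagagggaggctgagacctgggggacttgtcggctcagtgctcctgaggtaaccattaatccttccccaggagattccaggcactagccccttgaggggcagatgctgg
SLC2A2: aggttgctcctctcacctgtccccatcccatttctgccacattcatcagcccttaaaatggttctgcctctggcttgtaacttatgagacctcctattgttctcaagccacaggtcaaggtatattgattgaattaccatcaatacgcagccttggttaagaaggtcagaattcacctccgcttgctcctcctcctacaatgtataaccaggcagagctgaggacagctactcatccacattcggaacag

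The motifs were searched on both strands. They were the GC box GGGCGG, found in 30.5% of 33469 promoters of this length, the CCAAT box (34.0%), the TATA box TATAAA (12.9%), the hypoxia response core ACGTG (16.6%) and the HNF1 half-site GTTAAT (6.45%). The SLC2A1 promoter held 3 GC boxes and 1 hypoxia response core, and its GC content of 68.4% was higher than that of 89.7% of all promoters. The SLC2A12 promoter had a GC content of 49.2% and none of these letters. The SLC5A2 promoter held 1 CCAAT box at a GC content of 54.8%, and that of SLC2A2 held none of the motifs at 47.2%. Promoter entries were at hand for 8 of the 10 members. Of those not shown, SLC2A13 had 4 GC boxes, SLC2A8 had 3 CCAAT boxes, SLC2A5 had 1 CCAAT box and SLC2A9 had no match. A match describes these letters only and is no evidence of a factor at work.

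By TPM, SLC2A12 was the most abundant glucose carrier transcript in each choroid plexus library. It encodes GLUT12 (ENSRNOG00000011161), a facilitative carrier that insulin can bring to the cell surface. The transcript was at 110.1 TPM in the male (10374 expected counts, 95% counting interval 108 to 112 TPM), 80.39 TPM in the female (7441 counts, 78.6 to 82.2 TPM) and 58.35 TPM in the FACS library (5821 counts, 56.9 to 59.9 TPM), and it was listed at 0 in the tubule. The male library was highest and the FACS library lowest of the choroid plexus samples, and none of these intervals overlapped. Such intervals cover counting error only. Among the listed transporters and pumps, SLC2A12 ranked 33 in the male and the female and 37 in the FACS library.

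SLC2A1 encodes GLUT1 (ENSRNOG00000007284), the widely expressed basal glucose carrier. Its level was 67.5 TPM in the male (3216 counts, 65.2 to 69.9 TPM), 66.15 TPM in the female (3227 counts, 63.9 to 68.5 TPM) and 51.35 TPM in the FACS library (3061 counts, 49.5 to 53.2 TPM), with 0 listed in the tubule. The male and female libraries could not be told apart within counting error, and the FACS library lay below both. Its ranks among the transporters and pumps were 44, 39 and 42, in the same order of libraries. SLC2A12 and SLC2A1 together made up 86.4% of the TPM of the 9 SLC2A genes in the male, 85.5% in the female and 77.2% in the FACS library.

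Because both genes are read in the same library, the ratio of their TPM does not depend on how the library was scaled. It does depend on the length by which TPM divides the counts of each gene. There was more SLC2A12 than SLC2A1 in all 3 choroid plexus libraries, by 1.63 times in the male (1.57 to 1.70), 1.22 times in the female (1.17 to 1.27) and 1.14 times in the FACS cells (1.09 to 1.19). The male ratio was above the other two, beyond counting error. The small lead of SLC2A12 in the FACS cells hinged on a longer length used for SLC2A1 in that library, as given below. The spread between animals is not known, so the order of the libraries has no replicate check.

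Next in abundance was SLC2A8, encoding GLUT8 (ENSRNOG00000022274), a mainly intracellular hexose carrier. Its levels were 16.68 TPM in the male (742 counts), 16.43 TPM in the female (717 counts) and 20.62 TPM in the FACS library (966 counts). SLC2A8 was thus highest in the FACS cells, unlike SLC2A12 and SLC2A1.

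SLC2A10 encodes GLUT10 (ENSRNOG00000025384), whose loss causes arterial tortuosity syndrome. The transcript was at 6.43 TPM in the male (605 counts), 4.52 TPM in the female (417 counts) and 3.96 TPM in the FACS library (394 counts). It followed the order of SLC2A12, with the male library highest. In the RefSeq gene models the span of SLC2A10 overlaps that of Elmo2, and that of SLC5A2 overlaps Rusf1. The strandedness of the libraries was not given in the sources used here, so reads of overlapping genes may have been divided between them, and the values of both members are uncertain to that extent.

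SLC5A2 encodes SGLT2 (ENSRNOG00000020039), the Na+-coupled carrier of the early proximal tubule and the target of the gliflozin drugs. It was at 6.18 TPM in the male choroid plexus (299 counts, 5.5 to 6.92 TPM), 4.87 TPM in the female (232 counts, 4.26 to 5.54 TPM) and 6.37 TPM in the FACS cells (326 counts, 5.70 to 7.10 TPM). The tubule library had 6.02 TPM as deposited (422 counts, 5.46 to 6.62 TPM). As deposited, then, SGLT2 transcript stood at about the same TPM in choroid plexus and tubule, and its rank among the transporters and pumps was 137 in the male, 138 in the female, 121 in the FACS and 20 in the tubule library.

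SLC2A13 encodes HMIT (ENSRNOG00000015741), a proton-coupled myo-inositol carrier. Its levels were 2.39 TPM in the male (349 counts), 1.77 TPM in the female (254 counts), 1.94 TPM in the FACS library (299 counts) and 0.07 TPM in the tubule (16 counts). It was the most weakly transcribed of the members that the tubule library contained.

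SLC2A4, encoding the insulin-responsive carrier GLUT4 of muscle and fat (ENSRNOG00000017226), was at 1.04 TPM in the male (57 counts), 1.17 TPM in the female (63 counts) and 1.61 TPM in the FACS library (93 counts). SLC2A9, encoding the urate carrier GLUT9 (ENSRNOG00000005302), was at 0.76 TPM in the male (58 counts), 0.63 TPM in the female (47 counts) and 0.76 TPM in the FACS library (61 counts). Both stood close to the cut-off in the choroid plexus and were listed at 0 in the tubule.

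SLC2A5 encodes the fructose carrier GLUT5 (ENSRNOG00000017693), best known from the intestine and also described in microglia. Its level was 0.73 TPM in the male (34 counts, 0.506 to 1.02 TPM), 0.26 TPM in the female (12 counts, 0.134 to 0.454 TPM), 3.58 TPM in the FACS library (175 counts, 3.07 to 4.15 TPM) and 0.91 TPM in the tubule (64 counts, 0.701 to 1.16 TPM). The FACS library stood apart from the other choroid plexus libraries, and the female was lowest. SLC2A2, encoding the low-affinity carrier GLUT2 of liver, islet and tubule (ENSRNOG00000011875), had 1.22 TPM in the tubule (counting interval 0.996 to 1.48 TPM) and no count in the choroid plexus. A count of 3 would have been 0.067 TPM in the male, 0.068 TPM in the female and 0.063 TPM in the FACS library.

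**Figure D1:**
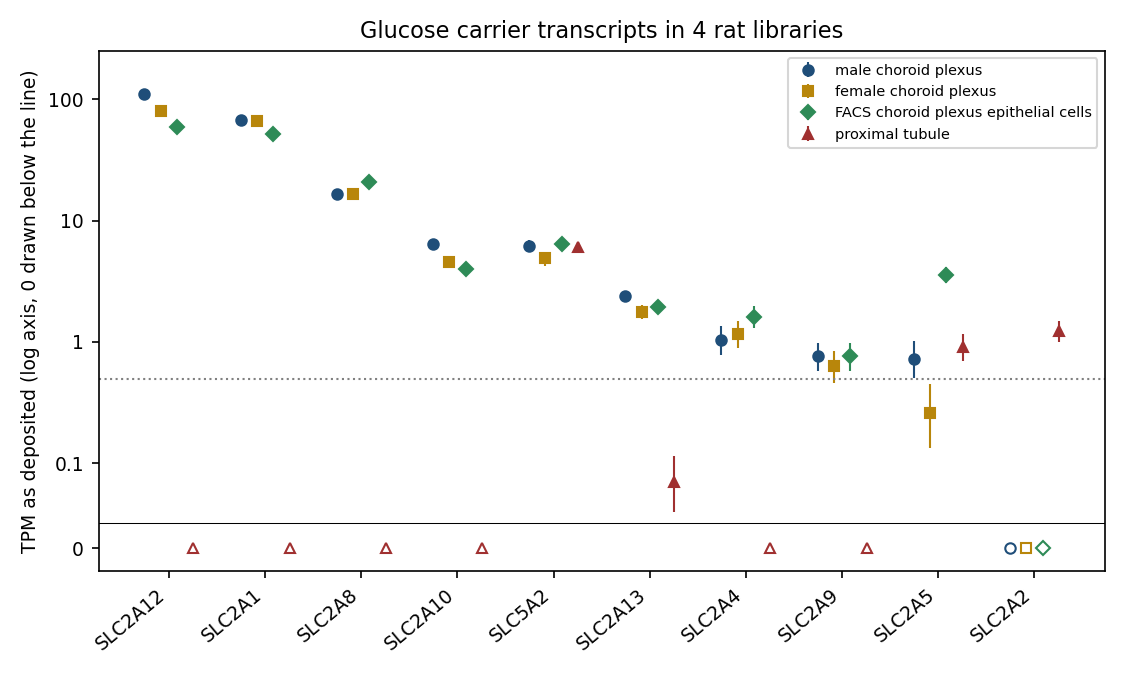
TPM as deposited on a log axis for the 10 members in the male choroid plexus, the female choroid plexus, the FACS epithelial cells and the proximal tubule, with 95% counting intervals as bars, 0.5 TPM as the dotted line and open symbols for genes listed at 0. SLC2A12 and SLC2A1 stand at 51.35 to 110.1 TPM in the choroid plexus and at 0 in the tubule, and SLC2A2 stands above 0 in the tubule alone.

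By the study's cut-off of 0.5 TPM, the male choroid plexus transcribed 9 of the 10 members, the female 8, the FACS cells 9 and the tubule 3. Of all gene IDs, 41.4% reached it in the male, 40.8% in the female, 39.9% in the FACS and 15.8% in the tubule library. Except in the female, these counts follow from how the members were chosen, and nothing is read from them. In the female library SLC2A5 was the member that fell short besides SLC2A2. The summed TPM of the 9 SLC2A genes was 206 in the male, 171 in the female and 142 in the FACS library, which was 1.25%, 1.16% and 1.12% of the TPM of all listed transporters and pumps. In the tubule the sum was 2.2 TPM, or 0.056%.

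The order of the members by TPM was SLC2A12, SLC2A1 and SLC2A8 in each choroid plexus library, with no overlap of counting intervals between these 3. Further down, some neighbours could not be ranked. In the male library the intervals overlapped for SLC2A10 and SLC5A2, for SLC2A4 and SLC2A9, and for SLC2A9 and SLC2A5. In the female they overlapped for SLC5A2 and SLC2A10. In the FACS library the pairs were SLC2A10 and SLC2A5, and SLC2A13 and SLC2A4. In the tubule the order was SLC5A2, SLC2A2, SLC2A5 and SLC2A13, of which SLC2A2 and SLC2A5 overlapped.

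The FACS cells were set against the whole male tissue to see how these transcripts differed between them. Immune markers were higher in the FACS library, as given below, so the comparison cannot assign a transcript to the epithelium. Differences are given on the scale log2(TPM + 1), where the added 1 makes changes of weakly transcribed genes look smaller, and 2-fold on that scale was taken as a difference. SLC2A5 was 4.90 times as high in TPM in the FACS cells as in the male tissue (3.38 to 7.31), a log2 difference of 1.40. It was the 1 member of the 9 measured in either library that was at least 2-fold higher, and 0 were at least 2-fold lower. Of the 14024 IDs that reached 0.5 TPM in either library, 4.61% were at least 2-fold higher and 25.5% at least 2-fold lower. Over these genes the median log2 difference was -0.58, so most genes took a smaller share of the FACS library.

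SLC2A12 was lower in the FACS cells, at 0.53 times its TPM in the male tissue (0.513 to 0.547), a log2 difference of -0.90. This was below the median of all genes by 0.32 on the log2 scale. SLC2A10 was at 0.616 times (0.541 to 0.7), a log2 difference of -0.58, which was the median itself. Both were lower in the FACS library on each of the other scales tried, in which the 10 highest genes of each library were left out or TPM was replaced by counts scaled to 1000000 per library (CPM). Against the female tissue in place of the male, the log2 difference of SLC2A12 was -0.46, which was at the median of all genes in that comparison, and that of SLC2A10 was -0.15, which was above the median by 0.30.

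Most markers of the epithelium were lower in the FACS cells too, about as far as genes at large. Of the 10, TTR and FOLR1 were higher and 8 were lower, 3 of them at least 2-fold, with a median log2 difference of -0.53. Of all genes, 25.5% were at least 2-fold lower, and the median was -0.58. Those 3 were the K+ channel KCNJ13, at 685.2 TPM against 1372 TPM in the male tissue, the HCO3- carrier SLC4A5, at 314 TPM against 881.3 TPM, and the transcription factor OTX2, at 49.98 TPM against 139.1 TPM. Others differed less, such as AQP1 at 687.3 TPM against 720.7 TPM and TRPV4 at 74.14 TPM against 92.08 TPM. The part of these markers in the levels of SLC2A12 and SLC2A10 was not tested.

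For SLC2A1 the direction depended on the scale. Its TPM in the FACS cells was 0.761 times that in the male tissue (0.724 to 0.8), a log2 difference of -0.39, yet its CPM, the expected counts scaled to a total of 1000000, was higher, 128 against 114. Without the 10 highest genes of each library the log2 difference was 0.02, and relative to the median of all genes it was 0.19. TPM divides counts by an effective length, the number of positions at which a fragment could start, averaged over the transcripts detected. That length was 2288 bases for SLC2A1 in the FACS library, 2025 bases in the female and 1944 bases in the male. The gene's length in the FACS cells thus exceeded that in the male by 344 bases, while the median gene differed by -17.0 bases. Among 13184 genes with at least 10 counts in each choroid plexus library, 493 (3.74%) were at least 10% longer in the FACS than in the male library once that median was taken off, and SLC2A1 was 18.5% longer. Divided by the male lengths, the FACS to male TPM ratio would be 0.895 for SLC2A1 and 0.528 for SLC2A12. At those lengths SLC2A12 would no longer lie above SLC2A1 in the FACS cells. On expected counts, with no division by length, SLC2A12 was ahead there, at 1.9 times SLC2A1. For the other members measured in the choroid plexus the same difference was -10.7 bases in SLC5A2 and -17.0 or -17.1 bases in the rest. Length was not the whole of the change in direction, since at the male lengths the SLC2A1 ratio would still be below 1. The other members too had a higher ratio in CPM than in TPM, such as 0.666 against 0.53 for SLC2A12. What changed the effective length was not tested.

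**Figure D2:**
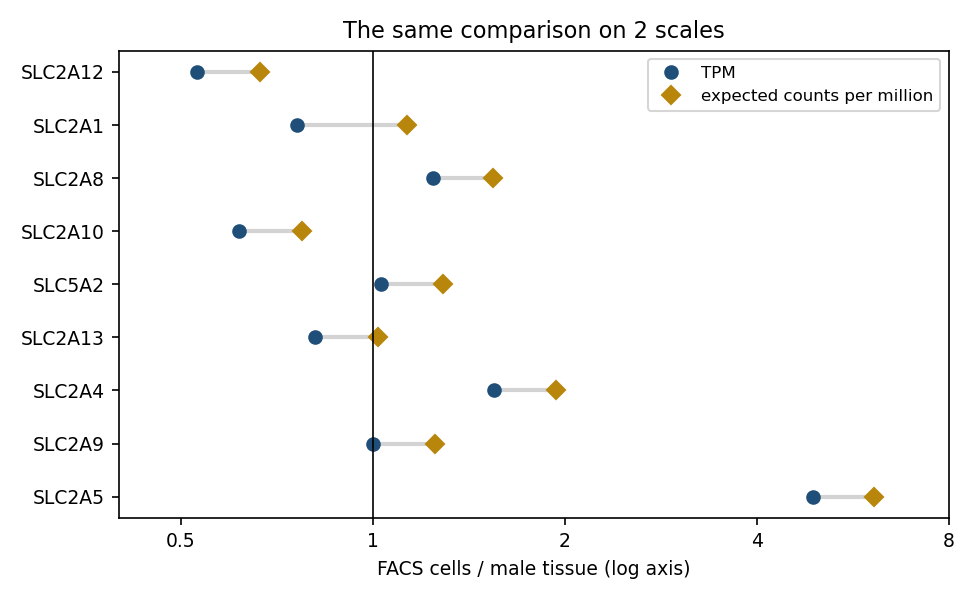
Ratio of the FACS cells to the male choroid plexus on a log axis for the 9 members measured there, from TPM (circles) and from CPM of expected counts (diamonds). SLC2A1 crosses 1 between the scales, from 0.761 to 1.13, as does SLC2A13, from 0.812 to 1.02, whereas SLC2A12 and SLC2A10 stay below 1 and SLC2A5 stays above it.

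For the remaining members no ratio reached 2-fold. SLC2A8 was at 1.24 times its male TPM in the FACS cells (1.12 to 1.36), a log2 difference of 0.29, and SLC2A4 was at 1.55 times (1.1 to 2.19), a log2 difference of 0.36. SLC5A2 was at 1.03 times (0.878 to 1.21), SLC2A9 at 1.0 times (0.687 to 1.46) and SLC2A13 at 0.812 times (0.693 to 0.95). The ratios of SLC5A2 and SLC2A9 included 1 within counting error, which does not show that their levels were equal. Relative to the median of all genes, SLC2A12 and SLC2A10 were the 2 members not above it, and the other 7 were higher, whereas against the female tissue all 9 were at or above the median.

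SLC2A5 was read beside the markers of immune cells, since the choroid plexus holds resident macrophages. Of 8 such markers 7 had a name in the files' lists, and all 7 were higher in the FACS cells than in the male tissue, 6 of them at least 2-fold. CD74, the invariant chain of class II antigen presentation, had 2556 TPM against 344.6 TPM, the lysozyme gene LYZ2 had 1939 TPM against 468.1 TPM, and the class II gene RT1-DA had 649.5 TPM against 104 TPM. CSF1R, the receptor that macrophages depend on, had 79.12 TPM against 16.53 TPM. None of the 7 markers was at 0 in a choroid plexus library. Their TPM summed to 608 in the female, 945 in the male and 5246 in the FACS library, the same order of libraries as for SLC2A5. Their part in the SLC2A5 result was not tested. Against the female tissue in place of the male, SLC2A5 was 13.8 times as high in the FACS cells (7.69 to 27.2), again as the 1 member at least 2-fold higher, with 0 lower. Of all genes in that comparison 5.61% were at least 2-fold higher and 16.8% at least 2-fold lower.

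The summed TPM of endothelial and of stromal markers had the same order of libraries, by smaller steps, and that of red cell markers did not. Single markers did not all follow the sums. In the FACS cells 5 endothelial markers were higher than in the male tissue and 3 were lower, and 2 stromal or mural markers were higher and 2 lower. The 8 endothelial markers with a name, of 12 listed, had TPM that summed to 158.9 in the female, 192.5 in the male and 275.6 in the FACS library, and 0 of them differed 2-fold between FACS and male. Stromal and mural markers, of which 4 of 8 had a name, summed to 262.9, 345.8 and 379 TPM in the same order, with the matrix gene DCN 2.35 times as high in the FACS cells as in the male tissue and the pericyte gene RGS5 at 0.48 times. The haemoglobin genes HBB and HBA-A1, markers of red cells, summed to a TPM of 3230 in the female, 6271 in the male and 1162 in the FACS library. The part of these cell types in the levels of SLC2A1, SLC2A5 and SLC2A12 was not tested.

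**Figure D3:**
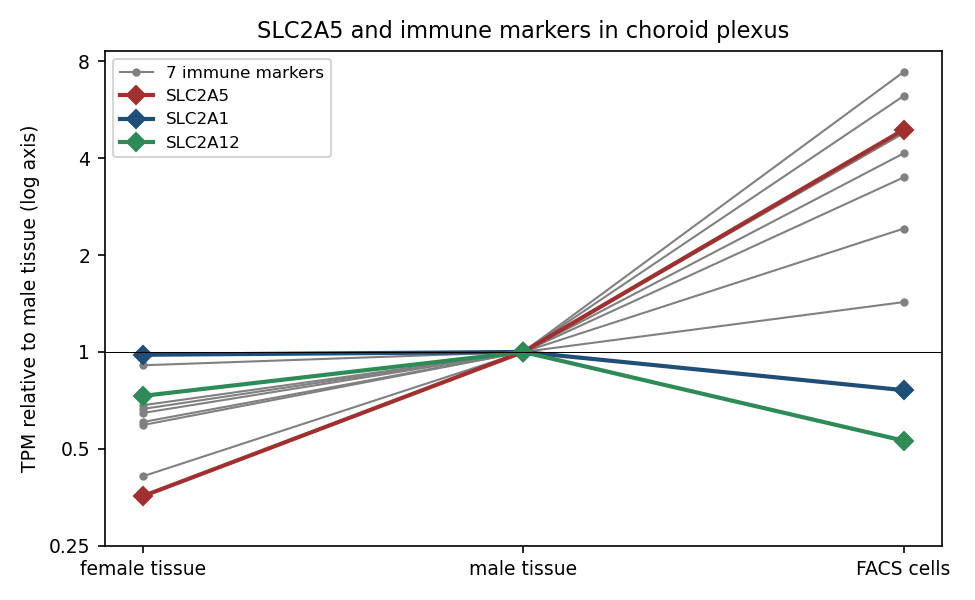
TPM relative to the male choroid plexus, on a log axis, in the female choroid plexus, the male choroid plexus (set to 1) and the FACS cells, for SLC2A5, SLC2A1, SLC2A12 and the 7 named immune markers, with lines joining the values of a gene. SLC2A5 lies at 0.356 in the female and 4.90 in the FACS cells, among or beyond the immune markers in both, while SLC2A12 lies below 1 in both.

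The female choroid plexus was set against the male to ask how far the sexes differ. No member reached a 2-fold difference on the log2 scale, with 0 higher and 0 lower of the 9 measured. Of the 13869 IDs that reached 0.5 TPM in either library, 0.440% were at least 2-fold higher in the female and 0.959% at least 2-fold lower. The median log2 difference of all genes was -0.16. SLC2A12 was at 0.73 times its male TPM (0.709 to 0.752), a log2 difference of -0.45. SLC2A10 was at 0.703 times (0.619 to 0.798) with -0.43, SLC2A13 at 0.741 times (0.628 to 0.873) with -0.29, and SLC5A2 at 0.788 times (0.661 to 0.939) with -0.29. These 4 were lower in the female TPM by more than counting error, and stayed below 0 relative to the median of all genes. For SLC5A2 that distance from the median, -0.13, was itself within counting error.

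SLC2A1 and SLC2A8 hardly differed between the sexes in TPM, at 0.98 times (0.933 to 1.03) and 0.985 times (0.888 to 1.09), and in CPM both were slightly higher in the female, by log2 differences of 0.16 and 0.11. SLC2A4 was at 1.12 times (0.774 to 1.64) and SLC2A9 at 0.829 times (0.552 to 1.24). SLC2A5 had the lowest ratio of the members, 0.356 (0.168 to 0.705), from 12 counts in the female and 34 in the male. Its log2 difference with the pseudocount of 1 was -0.46, short of 2-fold, and with a pseudocount of 0.1 it was -1.21, past it. All 7 named immune markers were lower in the female as well, CD74 at 208.7 TPM and CSF1R at 10.68 TPM. Their median log2 difference was -0.59, against -0.16 for all genes. P2RY12 differed least, at 1.1 TPM against 1.21 TPM, and its log2 difference of -0.07 lay above the median of all genes. This comparison shares its male library with the FACS comparison, so a high or low male value moves both.

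**Figure D4:**
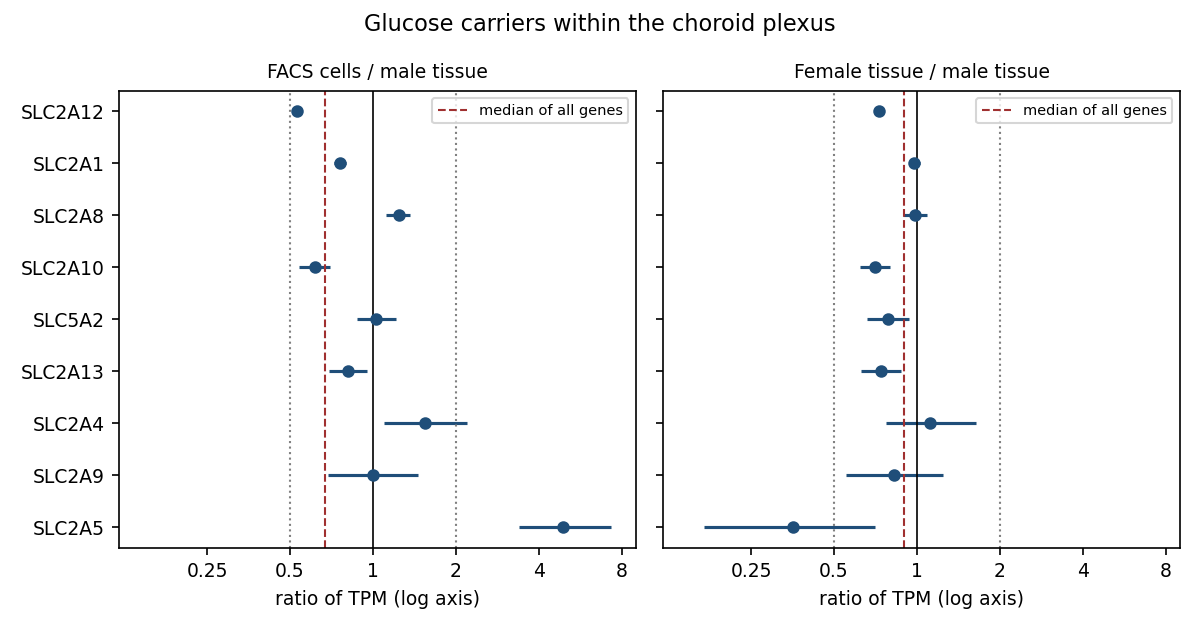
Ratio of TPM with 95% counting intervals, on a log axis, for the 9 members measured in the choroid plexus, in the FACS cells against the male tissue (left) and in the female against the male tissue (right), with dotted lines at 2-fold and a dashed line at the median of all genes, which was computed with the pseudocount of 1. SLC2A5 lies beyond 2-fold in both panels without the pseudocount, at 4.90 and 0.356.

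The proximal tubule was set against the male choroid plexus as another epithelium that moves much fluid. For this comparison the mitochondrially encoded genes were left out of both libraries and TPM rescaled. In the tubule SLC5A2 was at 21.6 TPM, against 6.74 TPM in the choroid plexus, or 3.20 times as high (2.75 to 3.72), a log2 difference of 1.54. SLC2A5 was at 3.26 TPM against 0.797 TPM, 4.10 times as high (2.66 to 6.41), with a log2 difference of 1.25. SLC2A2 was at 4.38 TPM in the tubule, where it ranked 59 among the transporters and pumps, and was listed at 0 in the choroid plexus.

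Thus 3 of the 10 members were at least 2-fold higher in the tubule, and 6 were at least 2-fold lower. Of the 14227 IDs that reached 0.5 TPM in either library, 12.1% were at least 2-fold higher and 71.0% at least 2-fold lower, and the median log2 difference was -2.27. The share of members lower in the tubule was therefore no larger than that of genes at large. SLC2A2 was a member through the tubule list alone, and every member lower in the tubule was one through choroid plexus lists alone. The choice of members thus fixed these directions, and nothing is read from the counts. SLC5A2 and SLC2A5 were on lists of both tissues. The values of SLC5A2 and SLC2A5 depended on the mitochondrially encoded genes. With them kept, SLC5A2 was at 6.02 TPM in the tubule against 6.18 TPM in the choroid plexus, a log2 difference of -0.03. SLC2A5 was then at 0.91 TPM against 0.73 TPM, a log2 difference of 0.14, so that neither was 2-fold higher.

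SLC2A12, at 120 TPM in the choroid plexus on this scale, and SLC2A1, at 73.7 TPM, were listed at 0 in the tubule. So were SLC2A8 at 18.2 TPM, SLC2A10 at 7.02 TPM, SLC2A4 at 1.14 TPM and SLC2A9 at 0.829 TPM, and no fold is given for them. SLC2A13 was at 0.251 TPM in the tubule against 2.61 TPM, 10.4 times lower (6.31 to 18.4). In all, 6 of the 9 members transcribed in the choroid plexus were listed at 0 in the tubule. The same held for 58.6% of the 13670 genes that reached 0.5 TPM in male choroid plexus, for 47.3% of those that reached 10 TPM and for 35.9% of those that reached 50 TPM. Among the listed transporters and pumps, 150 of 219 (68.5%) were. Genes that nearly every cell uses were also at 0 in the tubule library, PKM, HK1, PFKL and AKT1 among them, so a listed 0 is not taken as absence. In the deposited tubule values a count of 3 would have been 0.021 TPM for SLC2A12 and 0.046 TPM for SLC2A1. The sum over the 9 SLC2A genes was 7.89 TPM in the tubule and 224 TPM in the choroid plexus.

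Other carriers of the SLC5 family were read beside SLC5A2. Of 11 listed, 6 had a name in the files' lists, and 4 of these were at least 2-fold higher in the tubule and 2 at least 2-fold lower, where 12.1% and 71.0% of all genes were. SLC5A8, SLC5A10 and SLC5A12 lay below the cut-off of the lists in every choroid plexus library, so they could have a name through the tubule list alone. SLC5A5 could have one through choroid plexus lists alone. The naming thus fixed the direction of these genes, and nothing is read from the counts. SLC5A12, a lactate carrier of the tubule, was at 148 TPM there and had no count in the choroid plexus. SLC5A9 (SGLT4) was at 3.16 TPM in the tubule against 0.600 TPM, and SLC5A10 (SGLT5) at 2.15 TPM against 0, so SLC5A2 was the highest of the 3 SGLT genes named in each of these libraries. The iodide carrier SLC5A5 and the multivitamin carrier SLC5A6 had the opposite pattern. SLC5A5 was at 104 TPM in the choroid plexus and listed at 0 in the tubule, and SLC5A6 was at 151 TPM against 4.30 TPM.

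**Figure D5:**
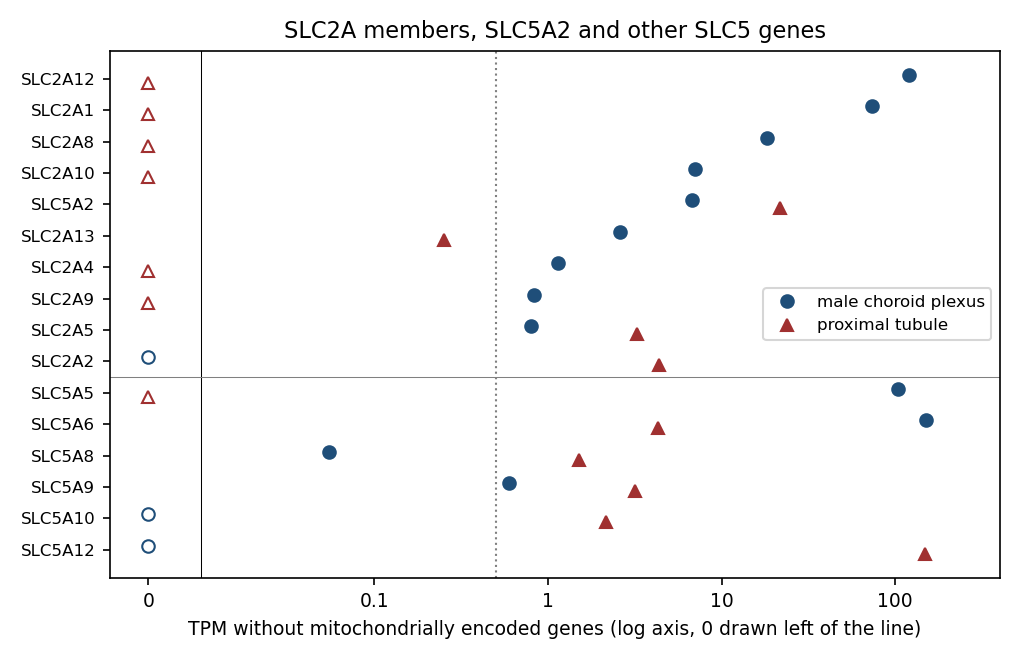
TPM with mitochondrially encoded genes left out, on a log axis with 0 drawn to the left of the line, in the male choroid plexus (circles) and the proximal tubule (triangles), for the 10 members above the grey line and 6 other SLC5 genes below it, with 0.5 TPM as the dotted line. SLC5A2, SLC2A5 and SLC2A2 lie further right in the tubule, as do SLC5A8, SLC5A9, SLC5A10 and SLC5A12, and 6 members have an open symbol at 0 there.

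Beyond the carriers themselves, the steps that follow glucose entry were read from lists of genes. These names come mostly from the study's list of the most abundant genes of the male choroid plexus, which favours genes high in the male library. Of 16 glycolysis genes 12 had a name. In the FACS cells 0 of the 12 were higher than in the male tissue and 12 were lower, 5 of them at least 2-fold, where 25.5% of all genes were, with a median log2 difference of -0.97 against -0.58 for all genes. ALDOA, the aldolase of glycolysis, was at 653.3 TPM against 1301 TPM, LDHB at 516.3 TPM against 1069 TPM and ENO1 at 404.8 TPM against 865.4 TPM. Between female and male 0 of the 12 differed 2-fold.

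In the tubule 11 of the 12 glycolysis genes were at least 2-fold lower than in the choroid plexus, with HK1, PFKL and PKM listed at 0. TPI1 was the exception, at 637 TPM against 292 TPM. SLC2A1 and SLC2A12 were also at 0 in the tubule, where 71.0% of all genes were at least 2-fold lower. Both carriers were chosen, and most of the glycolysis genes named, through choroid plexus lists, so nothing is read from this likeness.

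Of 8 genes listed for insulin signalling and carrier control, 7 had a name. These names too come mostly from lists of the male choroid plexus, which favour genes high in that library. All 7 were lower in the FACS cells than in the male tissue, 3 of them at least 2-fold, where 25.5% of all genes were, with a median log2 difference of -0.99 against -0.58 for all genes. The kinase AKT1, which acts downstream of the insulin receptor, was at 72.6 TPM against 120.7 TPM, and SGK1, a kinase induced by corticosteroids, at 66.77 TPM against 133.6 TPM. TXNIP, which lowers glucose uptake, was at 32.49 TPM against 60.32 TPM. SLC2A4 itself was among the members higher in the FACS cells, at 1.61 TPM against 1.04 TPM.

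Carriers of lactate and other monocarboxylates were all named, 10 of 10. In the FACS cells 5 were higher and 4 lower among the 9 measured, with 1 at least 2-fold in each direction. SLC16A3, the lactate exporter MCT4, was at 23.42 TPM against 11.03 TPM, and SLC16A12 was at 33.77 TPM against 69.86 TPM. BSG, the chaperone that brings several of these carriers to the membrane, was the highest of them, at 4925 TPM in the FACS cells and 3308 TPM in the male tissue. SLC16A8, encoding MCT3 of retinal pigment epithelium and choroid plexus, was at 100.2 TPM in the FACS cells, above SLC2A12 and SLC2A1 there, and at 70.3 TPM in the male tissue.

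The other sugar carriers with a name were SLC45A4 and SLC50A1, of 4 listed. SLC45A4 was at 83.88 TPM in the male, 66.62 TPM in the female and 36.71 TPM in the FACS library, more than 2-fold lower in the FACS cells. SLC50A1 (SWEET1) was at 32.57, 27.6 and 32.81 TPM. The former had the male library highest and the FACS library lowest, the order also seen for SLC2A12 and SLC2A10.

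Finally, the transporters and pumps whose levels over the 4 libraries were most like those of the main members were sought, by the root mean square difference of log2 values after each gene's mean was taken off. For SLC2A12 these were the Na+/Ca2+,K+ exchanger SLC24A4 (0.05), the zinc carrier SLC39A12 (0.06) and SLC12A2 (0.10), encoding NKCC1, the antigen of the sort, of 128 candidates. For SLC2A1 they were the Ca2+ pump ATP2B2 (0.10), SLC5A6 (0.11) and the folate carrier SLC19A1 (0.14). For SLC5A2 they were MAGT1 (0.47), SLC15A2 (0.53) and PDZD11 (0.55), none of them close. SLC24A4 was at 110, 80.3 and 54.1 TPM in the male, female and FACS libraries and at 0 in the tubule. SLC12A2 was at 268, 237 and 150 TPM in the male, female and FACS libraries, so the transcript of the sort's antigen was lower in the sorted cells. Most genes were lower there too, with a median log2 difference of -0.58 between the FACS cells and the male tissue. The measure covers 4 libraries, 3 of them of choroid plexus.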

How the data were processed

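RNA of 4 pools was sequenced as paired-end reads. Mapping by the authors used STAR 2.7.2a and the Rnor_6.0 genome with Ensembl release 103. Per gene, the authors deposited the expected count of RSEM 1.3.3 (an estimate that need not be whole), a TPM, an FPKM, which was not used, and an effective length. Total expected counts were 28324976 (male), 25376480 (female), 23873318 (FACS) and 25130213 (tubule). Trimming with Trimmomatic is described for a comparison of species that includes the male library; for the other libraries trimming, and for all of them strandedness, was not given in the sources used here.

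Genes were named from the study's lists, which pair 2452 of 32883 IDs with a name, since 0 IDs were in the RefSeq table at hand. Members and gene lists were chosen with earlier results of these data known. Named were all members, up to 4 examples of each list with the highest TPM, and the 3 transporters at or above 10 TPM most like SLC2A1, SLC2A12 and SLC5A2; the naming of other genes came after their values were known. The cut-off for a transcribed gene was 0.5 TPM. Differences are of log2(TPM + 1), called at 2-fold, with no test, since each condition has 1 library. For the tubule comparison the 13 mitochondrially encoded genes were removed and TPM rescaled to 1000000, whereas the authors left them out of the reference genome. The 95% intervals are exact Poisson (levels) or exact binomial (ratios) on expected counts rounded to whole numbers, and the floor is 3 counts; both cover counting error only. Python 3.11.15, numpy 2.4.6, pandas 2.3.3, scipy 1.17.1 and matplotlib 3.10.9 were used, and the steps were tested on simulated data. Alternatives were other cut-offs, pseudocounts, scalings and reference libraries.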

Additional observations from a re-analysis of the deposited data

How the results depend on the processing

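With a cut-off of 5 TPM in place of 0.5 TPM, the members transcribed were 5 in the male, 3 in the female, 4 in the FACS and 1 in the tubule library. With a pseudocount of 0.1 in place of 1, 1 member, SLC2A5, was at least 2-fold lower in the female, against 0. In the tubule comparison, 5 members were at least 2-fold higher and 3 lower relative to the median of all genes, 1 was higher with mitochondrially encoded genes kept, and 1 was lower without the members listed at 0, an alternative chosen after the data were seen. Relative to that median the log2 difference of SLC2A13 was 0.74 and that of SLC2A4 1.18, both reversed, and with mitochondrially encoded genes kept that of SLC5A2 was -0.03. These moves follow from how each alternative is built. The SLC2A12 to SLC2A1 ratio from expected counts, with no division by length, was 3.23, 2.31 and 1.90 in the male, female and FACS libraries. Of the alternatives for counts and ratios, 47 kept a count within 1.5 times or a ratio within its counting interval, and 12 did not. For the log2 differences of single members, 78 stayed within a distance set by the counting interval, or did not change where a 0 leaves no interval, 88 did not, and 3 reversed a 2-fold difference. SLC2A9 in the tubule, short of 2-fold, went from -0.87 to 1.40 relative to the median of all genes. CPM of expected counts was also added after the data were seen. No paired analysis was possible because each condition has 1 library, and for the same reason no replicate could be left out. Counting error limits SLC2A4, SLC2A5 and SLC2A9 most, with 12 to 63 counts in the whole choroid plexus and 61 to 175 in the FACS library.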

Other observations

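Pyruvate entry into the mitochondrion and the polyol pathway, which turns glucose into fructose, gave values outside the comparisons above. Of 8 pyruvate entry genes 5 had a name, again mostly from lists that favour genes high in the male library. All 5 were lower in the FACS cells than in the male choroid plexus, 4 of them at least 2-fold, where 25.5% of all genes were, with MPC1, a subunit of the mitochondrial pyruvate carrier, at 68.59 TPM against 153.6 TPM and PDHB, of pyruvate dehydrogenase, at 57.15 TPM against 126 TPM. In the tubule, with mitochondrially encoded genes left out, the subunits that carry pyruvate into the mitochondrion were above the choroid plexus, MPC1 at 2167 TPM against 168 TPM and MPC2 at 1043 TPM against 160 TPM. PDHB at 30.6 TPM against 137 TPM and PDK3 at 3.73 TPM against 81.2 TPM were at least 2-fold lower there, and PDHA1 was at 168 TPM against 91.7 TPM.

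Both genes of the polyol pathway were present in the male and female choroid plexus at levels near that of SLC2A1. In the FACS cells both were below SLC2A1, which was at 51.35 TPM there. AKR1B1, the aldose reductase, was at 70.86 TPM in the male, 63.17 TPM in the female and 45.26 TPM in the FACS library and was listed at 0 in the tubule. SORD, the sorbitol dehydrogenase, was at 68.58, 63.71 and 30.1 TPM, and in the tubule it was at 86.8 TPM with mitochondrially encoded genes left out. G6PC3, the ubiquitous glucose-6-phosphatase and the 1 gene of 7 listed for gluconeogenesis that had a name, was at 84.51 TPM in the male, 74.1 TPM in the female and 82.62 TPM in the FACS library, and was listed at 0 in the tubule.

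The effective length of SLC2A1 differed between libraries beyond the shift of the median gene. In the female library it was 4.33% longer than in the male, and 154 of 13184 genes (1.17%) were at least 10% longer there, against 18.5% and 493 genes in the FACS library. Among the libraries the length followed the order male, female, FACS, with 0 counts in the tubule to set beside them.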
